A study of Mus musculus with 20 samples.

Results

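The genes described here encode the cytokine interleukin-1β, the alarmin HMGB1, the receptors they bind and the proteins that pass on or damp their signal. The genes are Il1b, Il1rn, Il1r1, Il1r2, Il1rap, Hmgb1, Tlr2, Tlr4, Myd88 and Irak3. They are 10 of the 24970 gene symbols of the deposited tables, and each was taken by its symbol. The genes, and the gene lists used below, were chosen with earlier results of these data known. All 10 symbols were found in the liver table and in the RAW264.7 table.

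Interleukin-1β is made as an inactive precursor, mainly by macrophages and monocytes, and is released after cleavage by an inflammasome caspase. It binds the receptor encoded by Il1r1, which then recruits the co-receptor encoded by Il1rap, and the pair signals through the adaptor MyD88 and the IRAK kinases to the transcription factor NF-κB. The Il1rn product occupies the same receptor without signalling, the Il1r2 product is a decoy that binds the cytokine and lacks a signalling domain, and IRAK3 is an IRAK family member that restrains the cascade. HMGB1 is a chromatin protein of nearly every cell that becomes an alarmin once released, and TLR4, TLR2 and RAGE, the product of Ager, are known receptors for it. In liver, macrophages are a main source of interleukin-1β, while hepatocytes answer it with acute phase proteins.

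RNA was sequenced from 20 mouse libraries, all labelled male. The 14 liver libraries came from WT mice on alcohol diet (n = 4) or control diet (n = 4) and from mice labelled RageΔMye on alcohol diet (n = 3) or control diet (n = 3), each fed for 6 weeks. The labels do not name what drives the deletion in RageΔMye mice. The 6 libraries of RAW264.7, a mouse macrophage-like line labelled WT, came from cells treated for 6 hours with [O] HMGB1 + IL1β, called the complex below (n = 3), or with the protein control BSA (n = 3). Values are TPM, transcript levels scaled by gene length and by the total of the library, so levels of different genes can be set side by side. Differences are given on the log2(TPM + 1) scale and were tested with limma, and a gene passed at a Benjamini-Hochberg adjusted p under 0.05 over all genes tested in a comparison. Nothing in the labels says that replicates came from separate animals or cultures, so the p-values measure the spread between these libraries, which may be technical.

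The libraries labelled RageΔMye and the RAW264.7 libraries stood apart from the WT liver libraries in ways that bear on every value below. The number of genes above 0 was 7594 to 8500 in the RageΔMye set, 8630 to 9231 in the RAW264.7 set and 15111 to 15597 in WT. The most frequent value above 0 in a library was 14.38 to 20.55 TPM, 9.849 to 13.35 TPM and 0.0576 to 0.0835 TPM in that order. How many reads a value of this size stands for is not known, so such values are not to be read as finely graded levels. Per library, 1 to 3 of 14 housekeeping genes stood at 0 in the RageΔMye set, 0 to 2 in the RAW264.7 set and 0 in WT, so a 0 in the first and the second set is given as listed at 0 and not as absence. Of all TPM, genes whose exons share bases with a gene of the other strand took 57.8% to 64.0% in the RageΔMye set, 69.3% to 73.5% in the RAW264.7 set and 15.8% to 18.4% in WT. Ager, the gene that the genotype label points at, was listed at 112, 93.1 and 166 TPM on alcohol diet and at 124, 101 and 128 TPM on control diet in libraries labelled RageΔMye. It stood at 0.0378 to 0.478 TPM on alcohol diet and 0.0194 to 0.199 TPM on control diet in WT, and at 0 in all RAW264.7 libraries. So Ager was higher in the libraries whose label names its deletion than in WT. The reason was not tested, and exon overlaps were not looked up for Ager. The 9 measured hepatocyte markers summed to 48590 to 57140 TPM on alcohol diet and 52210 to 65980 TPM on control diet in the RageΔMye set, and to 169400 to 188200 TPM on alcohol diet and 141300 to 161800 TPM on control diet in WT. They were at 0 TPM in RAW264.7 cells.

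The sequence just before the start of transcription was read for 9 of the 10 genes from RefSeq promoter windows (build GRCm38.p6), in 14 windows of 250 bases. A set of 3 motifs was searched on both strands: the κB consensus that NF-κB binds, the AP-1-like TGANTCA and the STAT-like TTCNNNGAA. Among 32851 windows of the same length from all genes, 7.25%, 6.75% and 7.02% held them in that order. The windows below are those of the 5 genes with a match, which is in capitals. These 5 genes rose in WT liver on alcohol diet, but so did Il1b and Irak3, whose windows held no match. The other windows of Il1r1 and Il1rn held none either. Tlr2 holds the κB consensus 173 and 172 bases before the start, in 2 overlapping matches, and Il1r1 holds it 232 bases before its second start. Il1rn holds the AP-1-like motif 141 bases before its first start, and Il1r2 and Myd88 hold the STAT-like motif 111 and 46 bases before theirs. A match is a description of letters and was not tested as a binding site, and no match was found in the windows of Il1b, Il1rap, Hmgb1 and Irak3.
Tlr2 (chr3:83841609-83841858, minus strand): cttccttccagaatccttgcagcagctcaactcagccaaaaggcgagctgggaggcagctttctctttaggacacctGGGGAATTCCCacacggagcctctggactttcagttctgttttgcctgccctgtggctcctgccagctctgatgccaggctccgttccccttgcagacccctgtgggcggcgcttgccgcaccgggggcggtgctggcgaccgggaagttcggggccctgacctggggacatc
Il1r1 (chr1:40266336-40266585, plus strand): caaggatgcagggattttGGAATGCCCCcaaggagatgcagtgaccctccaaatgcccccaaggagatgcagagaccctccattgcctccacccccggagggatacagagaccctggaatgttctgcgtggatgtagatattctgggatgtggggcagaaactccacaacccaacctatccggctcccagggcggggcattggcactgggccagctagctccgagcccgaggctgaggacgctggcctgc
Il1rn (chr2:24336610-24336859, plus strand): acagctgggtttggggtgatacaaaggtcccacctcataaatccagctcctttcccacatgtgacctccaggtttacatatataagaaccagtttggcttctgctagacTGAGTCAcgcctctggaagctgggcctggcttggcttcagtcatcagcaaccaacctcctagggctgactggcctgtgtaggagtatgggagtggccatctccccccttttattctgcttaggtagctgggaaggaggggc
Il1r2 (chr1:40085843-40086092, plus strand): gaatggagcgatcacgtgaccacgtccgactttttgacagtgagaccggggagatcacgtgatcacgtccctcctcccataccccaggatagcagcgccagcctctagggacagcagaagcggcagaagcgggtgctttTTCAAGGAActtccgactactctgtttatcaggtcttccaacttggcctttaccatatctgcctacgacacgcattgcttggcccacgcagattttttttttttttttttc
Myd88 (chr9:119340019-119340268, minus strand): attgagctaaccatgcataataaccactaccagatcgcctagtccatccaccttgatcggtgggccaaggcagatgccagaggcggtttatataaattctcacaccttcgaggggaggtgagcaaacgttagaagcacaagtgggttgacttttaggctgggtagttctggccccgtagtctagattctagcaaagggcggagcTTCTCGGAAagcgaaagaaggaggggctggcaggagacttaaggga

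In WT liver, alcohol diet was compared with control diet. The antagonist Il1rn, the decoy Il1r2, the signalling receptor Il1r1, the adaptor Myd88, Tlr2, the inhibitor Irak3 and Il1b itself were higher on alcohol diet, the co-receptor Il1rap was lower, and Hmgb1 did not pass. Of the 10 genes 9 reached the level needed for a test, a mean of 1 TPM in at least 1 group, and each of these 9 reached it in both groups. Of the 9, 7 rose and 1 fell, where 13.3% of the 9747 tested genes rose and 17.9% fell. The median difference of the 9 was 0.93 on the log2(TPM + 1) scale, against -0.05 over all tested genes. For 6 of them every alcohol library stood above every control library, which held for 12.3% of tested genes.

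**Figure D1:**
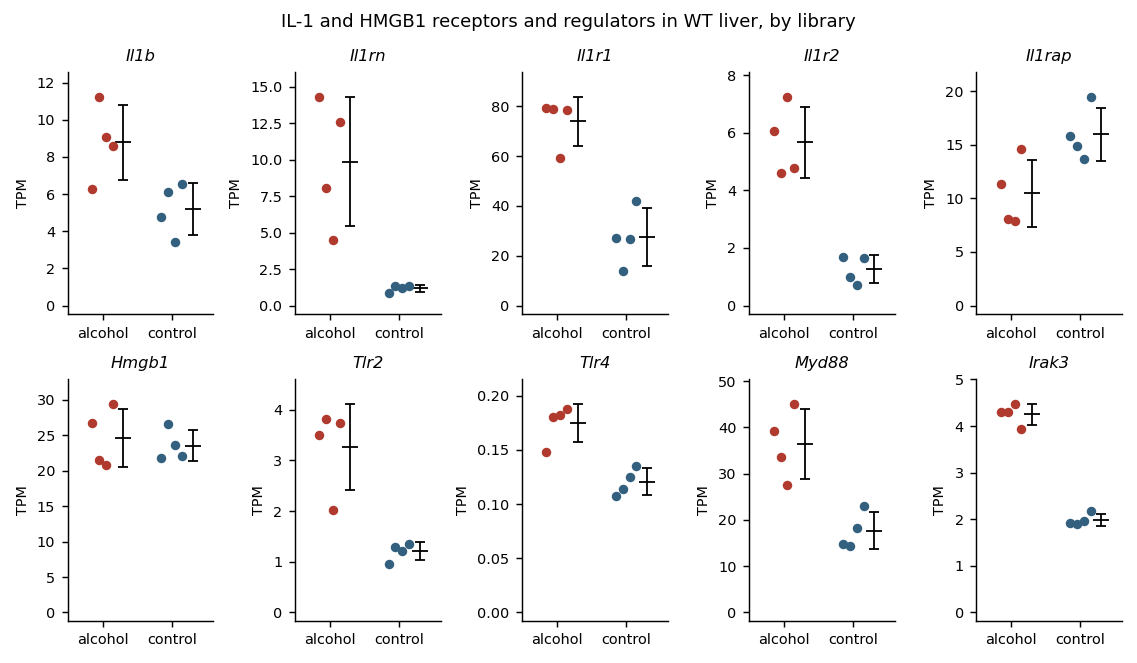
Level of each gene in TPM (vertical axis, linear, a scale for each panel) in the WT liver libraries on alcohol diet (red) and control diet (blue). Points are libraries, and bars give the mean and SD (n = 4 each). The groups do not overlap for Il1rn, Il1r1, Il1r2, Tlr2, Tlr4, Myd88 and Irak3, while Il1rap stands at 7.87 to 14.6 TPM on alcohol diet and 13.7 to 19.5 TPM on control diet.

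Among the ligands, the interleukin-1β gene Il1b (mm10 chr2:129364570-129371139, minus strand) was listed at 6.29, 11.2, 9.08 and 8.58 TPM on alcohol diet and at 4.75, 6.09, 3.45 and 6.53 TPM on control diet. The lowest alcohol library lay below the highest control library, so the groups overlapped. Il1b averaged 8.79 ± 2.02 TPM on alcohol diet and 5.20 ± 1.40 TPM on control diet (SD, n = 4 each), a difference of 0.66 (SE 0.200, adjusted p = 0.0296). The call did not hold when any 1 of control replicates 1 and 3 or alcohol replicates 2, 3 and 4 was left out (adjusted p 0.0574 to 0.0773), nor without the level filter (adjusted p = 0.0657), nor in a joint fit of all 14 liver libraries (adjusted p = 1).

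Hmgb1 (chr5:149046702-149184489, minus strand) was listed at 26.7, 21.5, 20.8 and 29.4 TPM on alcohol diet and at 21.9, 26.6, 23.7 and 22.1 TPM on control diet, with the control values inside the range of the alcohol values. Its difference was 0.05, with a 95% confidence interval of -0.25 to 0.35 and an adjusted p of 0.800. The mouse genome holds processed copies of Hmgb1, and how the authors' counting treated reads shared with them is not given in the sources used here.

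The antagonist gene Il1rn (chr2:24336853-24351494, plus strand) showed the largest difference among the 9. It was listed at 14.3, 8.04, 4.52 and 12.6 TPM on alcohol diet and at 0.827, 1.34, 1.22 and 1.37 TPM on control diet. Every alcohol library stood above every control library, and the alcohol libraries differed among themselves more than the control libraries did. The means were 9.86 ± 4.43 TPM on alcohol diet and 1.19 ± 0.251 TPM on control diet (SD, n = 4 each), a difference of 2.21 (SE 0.278, adjusted p = 3.8e-04).

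The signalling receptor gene Il1r1 (chr1:40225080-40317257, plus strand) was listed at 79.2, 78.9, 59.3 and 78.3 TPM on alcohol diet and at 27.2, 13.8, 26.9 and 42.1 TPM on control diet. It had the highest level of the 10 genes on either diet by its mean, 73.9 ± 9.77 TPM on alcohol diet and 27.5 ± 11.6 TPM on control diet (SD, n = 4 each). The groups did not overlap, and the difference was 1.48 (SE 0.268, adjusted p = 0.00293), a call that the joint fit of all 14 liver libraries did not make (adjusted p = 0.261).

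Il1r2 (chr1:40074079-40125231, plus strand), which encodes the decoy, lies next to Il1r1 on the same strand. It was listed at 6.05, 4.61, 7.24 and 4.77 TPM on alcohol diet and at 1.67, 0.994, 0.718 and 1.67 TPM on control diet. All alcohol libraries stood above all control libraries, with a difference of 1.57 (SE 0.183, adjusted p = 2.5e-04).

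The co-receptor gene Il1rap (chr16:26581704-26730117, plus strand) went the other way. It was listed at 11.3, 8.09, 7.87 and 14.6 TPM on alcohol diet and at 15.8, 14.9, 13.7 and 19.5 TPM on control diet. Alcohol replicate 4 stood inside the control range, and the difference was -0.60 (SE 0.191, adjusted p = 0.0374). The call did not hold without any 1 of 6 of the 8 libraries (control replicates 1, 2 and 4 and alcohol replicates 1, 2 and 3, adjusted p 0.0568 to 0.0975), nor without the level filter (0.0757), under quantile normalization (0.0501) or in the joint fit of the liver libraries (0.215).

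The balance of the receptor genes was measured within each library as the log2 ratio of one gene's TPM + 1 to another's. In all, 9 such ratios were tested with exact two-sided permutation tests over libraries. Among the 9, Il1r2 over Il1r1 in RAW264.7 cells could not differ, since both genes were at 0 in every library. In libraries labelled RageΔMye that ratio holds Il1r1 alone, since Il1r2 was at 0. Il1rap over Il1r1 was -2.70, -3.14, -2.77 and -2.35 on alcohol diet and -0.74, 0.10, -0.92 and -1.07 on control diet, with a mean difference of -2.08. Every alcohol library had fewer co-receptor transcripts per receptor transcript than every control library. That p of 0.0286 is the smallest that 4 against 4 libraries allow, and adjusted over the 9 ratios it was 0.129. Il1rn over Il1b was 1.07, -0.44, -0.87 and 0.50 on alcohol diet and -1.65, -1.60, -1.005 and -1.67 on control diet, again without overlap (difference 1.55, exact p = 0.0286, adjusted p = 0.129). Il1r2 over Il1r1 averaged -3.50 ± 0.442 on alcohol diet and -3.58 ± 0.543 on control diet (SD, n = 4 each), and no difference was detected (0.08, exact p = 0.743, adjusted p = 1).

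Of the Toll-like receptors that HMGB1 is known to engage, Tlr2 (chr3:83836272-83841767, minus strand) was listed at 3.50, 3.82, 2.01 and 3.73 TPM on alcohol diet and at 0.955, 1.29, 1.21 and 1.36 TPM on control diet. The groups did not overlap, and the difference was 0.93 (SE 0.159, adjusted p = 0.00227), which did not pass in the joint fit of the liver libraries (adjusted p = 0.549). Tlr4 (chr4:66827584-66930284, plus strand) stood below the level needed for the test, at 0.148, 0.180, 0.182 and 0.188 TPM on alcohol diet and at 0.108, 0.114, 0.125 and 0.135 TPM on control diet. Its groups did not overlap either, and in the fit without a level filter, over 17323 genes, its difference was 0.07 (adjusted p = 0.0247), a scale on which the pseudocount of 1 TPM shrinks the change of so low a gene.

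Myd88 (chr9:119335934-119341411, minus strand), the adaptor shared by the interleukin-1 receptor and most Toll-like receptors, was listed at 39.3, 33.5, 27.5 and 45.1 TPM on alcohol diet and at 14.8, 14.4, 18.3 and 23.0 TPM on control diet. No alcohol library fell into the control range, and the difference was 1.00 (SE 0.184, adjusted p = 0.00312), which did not pass in the joint fit either (adjusted p = 1). Irak3 (chr10:120141648-120202130, minus strand), the inhibitor downstream of it, was listed at 4.30, 4.30, 4.47 and 3.94 TPM on alcohol diet and at 1.91, 1.90, 1.96 and 2.19 TPM on control diet. Its libraries lay close together within each group, and the difference was 0.81 (SE 0.102, adjusted p = 3.8e-04).

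The genes did not order the alcohol libraries in one way. Alcohol replicate 3 was the lowest of the 4 for Il1r1, Il1rn, Il1rap, Hmgb1, Tlr2 and Myd88 and the highest for Il1r2 and Irak3.

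The diet groups of WT also differed in sex-linked transcripts and in cell type markers, whose part in these results was not tested. Xist was listed at 17.8 to 27.3 TPM on alcohol diet and at 0.00165 to 0.135 TPM on control diet, and 4 Y-linked genes summed to 0 to 0.0161 TPM on alcohol diet and 11.3 to 16.6 TPM on control diet, although all mice are labelled male. Diet and this difference cannot be told apart. In libraries labelled RageΔMye the diet groups did not overlap in Y-linked transcripts either. Their total per library was 0.276 to 1.74 TPM on alcohol diet and 3.16 to 4.50 TPM on control diet. Xist overlapped there, at 0.322 to 0.990 TPM on alcohol diet and 0 to 3.10 TPM on control diet. So diet and the Y-linked difference cannot be told apart in that set. In total liver, more cells of a type and more RNA per cell cannot be told apart either. The marker counts that follow are those of WT and stand against 13.3% of all tested genes that rose and 17.9% that fell. None of 12 Kupffer cell markers passed, and the sum of the 12 was 212 to 454 TPM on alcohol diet and 274 to 296 TPM on control diet. Of the 7 tested neutrophil markers 5 rose and 0 fell (3 of the 4 that reached the level filter in both groups rose), and the 11 markers of the list summed to 105 to 159 TPM on alcohol diet and 31.8 to 80.2 TPM on control diet. Of 9 tested monocyte and recruited macrophage markers 4 rose (1 of the 5 that reached it in both groups), and the list summed to 122 to 234 TPM on alcohol diet and 78.9 to 144 TPM on control diet. Of 9 tested stellate cell markers 6 rose, among them 5 of the 8 that reached it in both groups (80.1 to 145 TPM on alcohol diet, 43.9 to 66.8 TPM on control diet, summed over 11), and of 10 tested endothelial markers 3 rose (120 to 267 TPM on alcohol diet, 81.3 to 205 TPM on control diet). Of the defining markers of these 5 lists, 0 were at 0 in a whole WT group.

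The wider pathway was described with a list of 49 further genes of interleukin-1 family ligands, receptors, inflammasome and HMGB1 partners. In WT liver 28 of them were tested, 8 rose and 1 fell, where 13.3% of all tested genes rose and 17.9% fell. Il33, Casp4 and 1 gene that did not pass reached the level filter only through the alcohol group, and over the 25 that reached it in both groups 6 rose and 1 fell. The median difference of the 25 was 0.21, against -0.05 over all tested genes. Cd14, a co-receptor that hands ligands to TLR4, was listed at 104, 55.4, 31.2 and 48.3 TPM on alcohol diet and at 7.77, 7.52, 5.64 and 11.0 TPM on control diet (difference 2.66, adjusted p = 2.6e-04). Lbp, which loads CD14, averaged 160 ± 20.2 TPM on alcohol diet and 93.9 ± 30.6 TPM on control diet (difference 0.82, adjusted p = 0.0224). Among other ligands of the family, Il1a rose by 0.61 (adjusted p = 0.0213) and Il33 by 1.06 (adjusted p = 3.8e-04), with Il33 means of 1.96 TPM on alcohol diet and 0.406 TPM on control diet. So did the interleukin-18 inhibitor Il18bp by 0.78 (adjusted p = 0.00237), the inflammatory caspase gene Casp4 by 0.90 (adjusted p = 0.00984, means of 2.82 TPM on alcohol diet and 0.975 TPM on control diet) and the receptor-complex inhibitor Tollip by 0.50 (adjusted p = 0.0469). Ikbkg, the regulatory subunit of the kinase that frees NF-κB, fell (difference -0.65, adjusted p = 0.00906).

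Receptor levels were then set beside 32 NF-κB response genes, a list chosen with earlier results of these data known. In WT liver 19 were tested, of which 18 reached the level filter in both groups. Of the 18, 12 rose and 0 fell, against the same 13.3% and 17.9% of all tested genes, with a median difference of 0.77 against -0.05. Without alcohol replicate 1, 7 of the tested response genes rose. The early response gene Ier3 was listed at 79.8, 24.9, 17.0 and 29.1 TPM on alcohol diet and at 3.17, 3.50, 3.73 and 4.42 TPM on control diet (difference 2.80, adjusted p = 4.9e-04). The NF-κB inhibitors Nfkbia and Tnfaip3, which are themselves induced by NF-κB, rose by 0.76 (adjusted p = 0.00162) and 0.97 (adjusted p = 0.0232). The adhesion molecules Icam1 and Vcam1 rose by 1.27 (adjusted p = 0.00118) and 0.91 (adjusted p = 0.00425). Lcn2, an acute phase protein of hepatocytes and neutrophils, averaged 7501 ± 1299 TPM on alcohol diet and 1029 ± 1136 TPM on control diet (SD, n = 4 each, difference 3.53, adjusted p = 0.00271). The chemokine Ccl5 rose by 0.79 (adjusted p = 0.00516) and the mitochondrial dismutase Sod2 by 0.48 (adjusted p = 0.00913). The library with the most Ier3 and Cd14, alcohol replicate 1, also had the most Il1rn and the least Il1b of the alcohol libraries. Its Il1r1 level of 79.2 TPM was nearly the same as in alcohol replicates 2 and 4 (78.9 and 78.3 TPM). With 4 libraries per group, and the groups apart, no correlation between receptor and response levels is given.

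**Figure D2:**
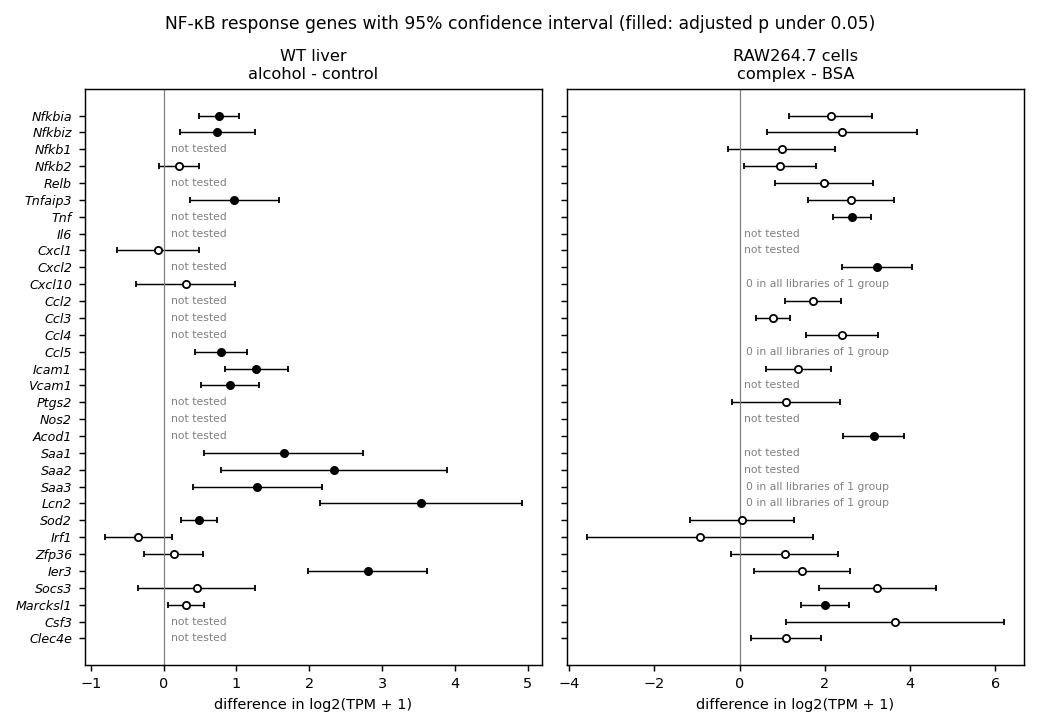
Difference between groups on the log2(TPM + 1) scale (horizontal axis) for the NF-κB response genes, alcohol minus control in WT liver and complex minus BSA in RAW264.7 cells, with 95% confidence intervals. Filled points passed at an adjusted p under 0.05, 12 genes in WT liver and 4 genes of RAW264.7 cells, and genes under the level filter or at 0 in a whole group have no point.

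The genes whose levels across the 8 WT libraries were most like those of 4 of the genes were found by Pearson's r of log2(TPM + 1) over 9747 genes. They were Irf8, Adrm1 and Dock2 for Il1b (r = 0.975, 0.964 and 0.963), Il13ra1, Tacc2 and Nupl1 for Il1r1 (0.997, 0.993 and 0.991), Ctsl, Crybb3 and Stap2 for Il1r2 (0.986, 0.984 and 0.981) and Itpkc, Ddx5 and Rbm39 for Il1rn (0.994, 0.994 and 0.993). The 8 libraries fall into the 2 diet groups, so these values take in the difference between diets, and they are a description.

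The same comparison of diets was made in the libraries labelled RageΔMye. No gene of the 10 passed there, where 0.0374% of the 10689 tested genes did at the adjusted threshold and 6.99% at an unadjusted p under 0.05. Of the 10 genes 7 could be tested, and Il1rn and Tlr2 reached the level filter only through the control group. Il1rap and Hmgb1 were listed above 0 in all 6 libraries.

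Il1rap was listed at 750, 551 and 741 TPM on alcohol diet and at 874, 809 and 836 TPM on control diet in libraries labelled RageΔMye. All alcohol libraries stood below all control libraries, which held for 5.85% of tested genes. Its difference was -0.32, with a 95% confidence interval of -0.78 to 0.15 and an adjusted p of 0.751. Hmgb1 was listed at 32.0, 35.2 and 29.0 TPM on alcohol diet and at 38.6, 25.4 and 27.9 TPM on control diet (difference 0.08, 95% confidence interval -0.85 to 1.02, adjusted p = 0.975).

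Each of the other 8 genes was listed at 0 in at least 2 of these 6 libraries. Il1b was at 0, 0 and 12.2 TPM on alcohol diet and at 0, 17.4 and 0 TPM on control diet. Il1r1 was at 5.94, 1.28 and 0 TPM on alcohol diet and at 1.63, 1.84 and 0 TPM on control diet, and Myd88 was at 8.68, 0 and 7.14 TPM on alcohol diet and at 8.82, 9.87 and 0 TPM on control diet. For Il1b a single library of each diet held the whole level. Il1rn was above 0 in control replicate 1 alone (5.78 TPM), Tlr2 in control replicate 3 alone (4.83 TPM) and Tlr4 in alcohol replicate 3 alone (0.375 TPM), while Il1r2 and Irak3 were listed at 0 in all 6.

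Of the 10689 genes tested in the libraries labelled RageΔMye 0.0374% passed. Neither list of related genes had a member that passed there, out of 27 tested pathway genes and 13 tested response genes. The smallest p-values belonged to Ly86, a partner of a Toll-like receptor homologue, at 15.1, 0 and 12.7 TPM on alcohol diet and 0 TPM in all control libraries, and to Sigirr, an inhibitory receptor of the family, at 21.5, 18.9 and 8.85 TPM on alcohol diet and 0, 0 and 17.2 TPM on control diet (adjusted p = 0.672 for each). Among the response genes they belonged to Irf1, at 29.3, 67.3 and 69.6 TPM on alcohol diet and 27.8, 23.9 and 7.33 TPM on control diet, and to Zfp36, at 0, 12.8 and 3.91 TPM on alcohol diet and 9.98, 38.9 and 27.3 TPM on control diet (adjusted p = 0.672 for each).

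Whether the diet effect differed between the genotypes was tested in 1 fit of all 14 liver libraries. None of the 9 tested genes passed (adjusted p 0.682 to 0.995), where 0.505% of 12069 tested genes passed and 8.50% did at an unadjusted p under 0.05. On simulated data this fit called many genes to which no change had been added, so its counts over all genes are uncertain. The simulation gave both genotypes a shared mean for each gene, unlike these data. It also cut off negative values, which can itself shift group means. The difference of effects, RageΔMye minus WT, was -3.13 for Il1rn (95% confidence interval -6.63 to 0.36), -1.78 for Tlr2 (-3.84 to 0.28), -1.57 for Il1r2 (-3.66 to 0.52) and -0.81 for Irak3 (-1.76 to 0.13). For Il1r2 and Irak3, which were at 0 in every library labelled RageΔMye, it is the WT effect with its sign turned. For Il1rn and Tlr2 the effect in RageΔMye rests on 1 control library each (5.78 and 4.83 TPM), since all others labelled RageΔMye were at 0. A difference as large as the WT effect and no difference both lie within these intervals. In both genotypes the diet groups also differed in Y-linked transcripts, whose part in the diet effects and in their difference was not tested.

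**Figure D3:**
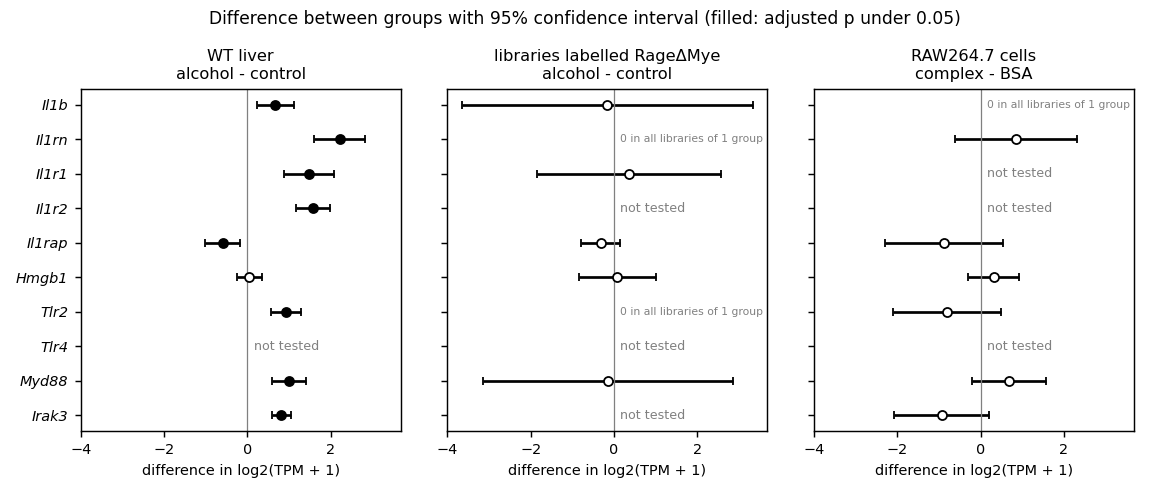
Difference between groups on the log2(TPM + 1) scale (horizontal axis) with 95% confidence intervals for the 10 genes, alcohol minus control in WT liver and in the libraries labelled RageΔMye and complex minus BSA in RAW264.7 cells. Filled points passed at an adjusted p under 0.05, which 8 genes did in WT liver and 0 in the libraries labelled RageΔMye, and genes below the level filter or at 0 in a whole group have no point.

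In RAW264.7 cells, the complex was compared with BSA. Il1b was the 1 gene of the 10 that passed. It was listed at 25.9, 36.1 and 16.9 TPM with complex and at 0 TPM in all 3 BSA libraries (adjusted p = 0.0300), and no fold change is given against a group at 0. Both receptor genes for interleukin-1β, Il1r1 and Il1r2, were listed at 0 in all 6 libraries. Of the 10 genes 7 could be tested, Il1b and Il1rap only through the group in which they were higher, and 0.152% of 10559 tested genes rose while 0.0284% fell. The Il1b call did not hold when any 1 of the 6 libraries was left out (adjusted p 0.107 to 0.174), with a pseudocount of 0.1 (0.0507) or 0.01 (0.121), or without the level filter (0.0535).

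**Figure D4:**
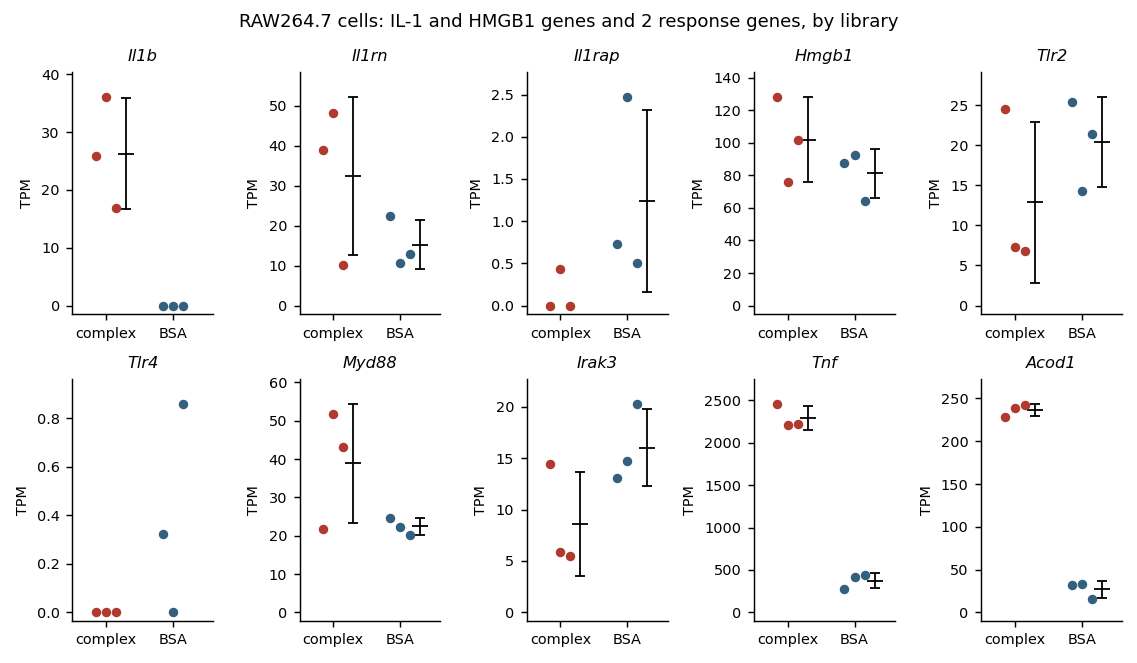
Level in TPM (vertical axis, linear, a scale for each panel) in RAW264.7 libraries given complex (red) or BSA (blue), for the 8 genes above 0 in at least 1 library and for the response genes Tnf and Acod1. Points are libraries, and bars give the mean and SD (n = 3) where no library of the group is at 0. Il1b is at 16.9 to 36.1 TPM with complex and at 0 with BSA.

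The antagonist gene Il1rn was listed at 38.9, 48.1 and 10.1 TPM with complex and at 22.3, 10.6 and 12.8 TPM with BSA. Complex replicate 3 lay below all BSA libraries, and the difference of 0.85 had a 95% confidence interval of -0.62 to 2.31 (adjusted p = 0.755). Il1rn over Il1b, as the log2 ratio of TPM + 1, was 0.57, 0.40 and -0.69 with complex and 4.54, 3.54 and 3.79 with BSA. The groups did not overlap (exact permutation p = 0.1, the smallest that 3 against 3 libraries allow, adjusted p = 0.225, difference -3.86), and the size of this difference rests on the pseudocount, since Il1b was at 0 with BSA.

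Hmgb1 had the highest level of the 10 genes in RAW264.7 cells, at 128, 75.8 and 102 TPM with complex and at 87.5, 92.4 and 64.2 TPM with BSA (difference 0.31, adjusted p = 0.755). The co-receptor Il1rap was listed at 0, 0.438 and 0 TPM with complex and at 0.734, 2.47 and 0.505 TPM with BSA. Every complex library was below every BSA library, which held for 7.91% of tested genes, and the difference did not pass (-0.89, adjusted p = 0.753).

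Tlr2 was listed at 24.5, 7.33 and 6.85 TPM with complex and at 25.4, 14.3 and 21.4 TPM with BSA, so that 2 of 3 complex libraries lay below all BSA libraries (difference -0.81, adjusted p = 0.752). Tlr4 was at 0 TPM in all 3 complex libraries and at 0.322, 0 and 0.860 TPM with BSA, below the level for a test. Irak3 was listed at 14.4, 5.84 and 5.44 TPM with complex and at 13.1, 14.7 and 20.3 TPM with BSA (difference -0.93, adjusted p = 0.641). Myd88 was listed at 21.8, 51.8 and 43.2 TPM with complex and at 24.7, 22.4 and 20.2 TPM with BSA, with 1 complex library inside the BSA range (difference 0.69, 95% confidence interval -0.21 to 1.58, adjusted p = 0.666). Complex replicate 1 was the one that stood apart for Tlr2, Irak3 and Myd88, with values near those of the BSA libraries.

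Beside these receptor levels, 4 of the 26 tested NF-κB response genes rose with complex in RAW264.7 cells and 0 fell. The other 22 did not pass, and with any 1 library left out 0 to 2 response genes passed. Of all 10559 tested genes 0.152% rose and 0.0284% fell. Since the response list was chosen with earlier results of these data known, these shares are a description. The difference was positive for 25 of the 26 and -0.92 for Irf1 (adjusted p = 0.786). Of the 26, 7 reached the level filter only through the complex group and so had to differ upwards. Over the other 19 the median difference was 1.99, against -0.09 over all tested genes. The cytokine gene Tnf was listed at 2455, 2204 and 2215 TPM with complex and at 270, 415 and 437 TPM with BSA (difference 2.64, adjusted p = 0.00364). Acod1, which makes itaconate in activated macrophages, was listed at 228, 238 and 242 TPM with complex and at 32.5, 33.0 and 15.9 TPM with BSA (3.15, adjusted p = 0.0151). The neutrophil chemokine Cxcl2 was listed at 90.0, 77.4 and 95.7 TPM with complex and at 5.92, 13.3 and 7.73 TPM with BSA (3.21, adjusted p = 0.0263). Marcksl1 was listed at 377, 380 and 521 TPM with complex and at 77.3, 121 and 121 TPM with BSA (2.00, adjusted p = 0.0333). These 4 genes are named because they passed, so the distance between their groups follows from that choice. Whether their levels went with those of Tlr2 or Irak3 was not tested.

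None of the 35 tested genes of the wider pathway list passed in RAW264.7 cells, where 0.152% of all tested genes rose and 0.0284% fell. The smallest p belonged to Nlrp3, the inflammasome sensor, at 116, 48.5 and 93.1 TPM with complex and at 7.87, 17.8 and 14.2 TPM with BSA (difference 2.58, adjusted p = 0.0952), and the next to the NF-κB restraining gene Tnip1, at 169, 98.5 and 129 TPM with complex and at 72.2, 45.5 and 77.2 TPM with BSA (1.02, adjusted p = 0.367). Cd14 was listed at 225, 206 and 158 TPM with complex and at 204, 188 and 153 TPM with BSA (0.11, adjusted p = 0.885), and no difference between liver and RAW264.7 values was tested. Of the macrophage markers, Lyz2 and Cd68 stood at 516 to 806 TPM and 306 to 333 TPM with complex and at 432 to 773 TPM and 325 to 534 TPM with BSA, while all 9 hepatocyte and all 10 T and NK cell markers were listed at 0. Of the 12 Kupffer cell markers, 9 were listed at 0 in all 6 RAW264.7 libraries, with Clec4f, Timd4, Marco and Vsig4 among them, as were the monocyte markers Ly6c2 and Fcgr1.

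Several of the 10 genes share exon sequence with a gene on the other strand, and the strand setting of the authors' counting is not given in the sources used here. By the GENCODE vM21 annotation, Myd88 shares 290 bases (11.26% of its exons) with the fatty acid thiolase gene Acaa1a, Irak3 shares 192 bases (5.22%) with Tmbim4, and Il1rap shares 552 bases (4.86%) with the antisense gene Gm20319. Il1b shares 25 bases with Il1bos and Hmgb1 shares 42 bases with Uspl1, while Il1r1, Il1r2, Il1rn, Tlr2 and Tlr4 share none.

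Gm20319 (chr16:26714446-26755502, minus strand), the partner of Il1rap, was listed above 0 in all 20 libraries. In WT liver it was listed at 13.4, 13.2, 11.3 and 17.3 TPM on alcohol diet and at 37.1, 44.3, 41.3 and 27.5 TPM on control diet, and it fell on alcohol diet like Il1rap (difference -1.37, adjusted p = 3.7e-04). In the RageΔMye set its values were 330, 181 and 291 TPM on alcohol diet and at 344, 267 and 316 TPM on control diet, beside 551 to 874 TPM of Il1rap. In RAW264.7 cells it was listed at 1169, 999 and 914 TPM with complex and at 1271, 955 and 1041 TPM with BSA, where Il1rap was at 0 to 2.47 TPM. The part of Gm20319 in the Il1rap values was not tested.

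Il1bos, the partner of Il1b, was at 0 to 0.0249 TPM on alcohol diet and at 0 to 0.0423 TPM on control diet in WT liver, below the level for a test, and was listed at 0 in all other libraries. The partners of Myd88 and Irak3 did not pass in WT liver. Acaa1a averaged 59.9 ± 8.59 TPM on alcohol diet and 63.6 ± 7.10 TPM on control diet (SD, n = 4 each, adjusted p = 0.635), and Tmbim4 was listed at 84.5, 85.8, 82.5 and 101 TPM on alcohol diet and at 83.5, 90.0, 80.2 and 85.1 TPM on control diet (adjusted p = 0.703). In libraries labelled RageΔMye Tmbim4 was listed at 0, 0 and 14.6 TPM on alcohol diet and 0, 0 and 14.4 TPM on control diet, beside 0 in all for Irak3. In RAW264.7 cells it was at 0, 11.5 and 0 TPM with complex and 19.7, 0 and 0 TPM with BSA, beside 5.44 to 20.3 TPM of Irak3. Acaa1a stood at 3.39 to 11.2 TPM with complex and 5.29 to 9.96 TPM with BSA there, and at 31.3 to 73.3 TPM on alcohol diet and 7.98 to 51.8 TPM on control diet in libraries labelled RageΔMye.

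**Figure D5:**
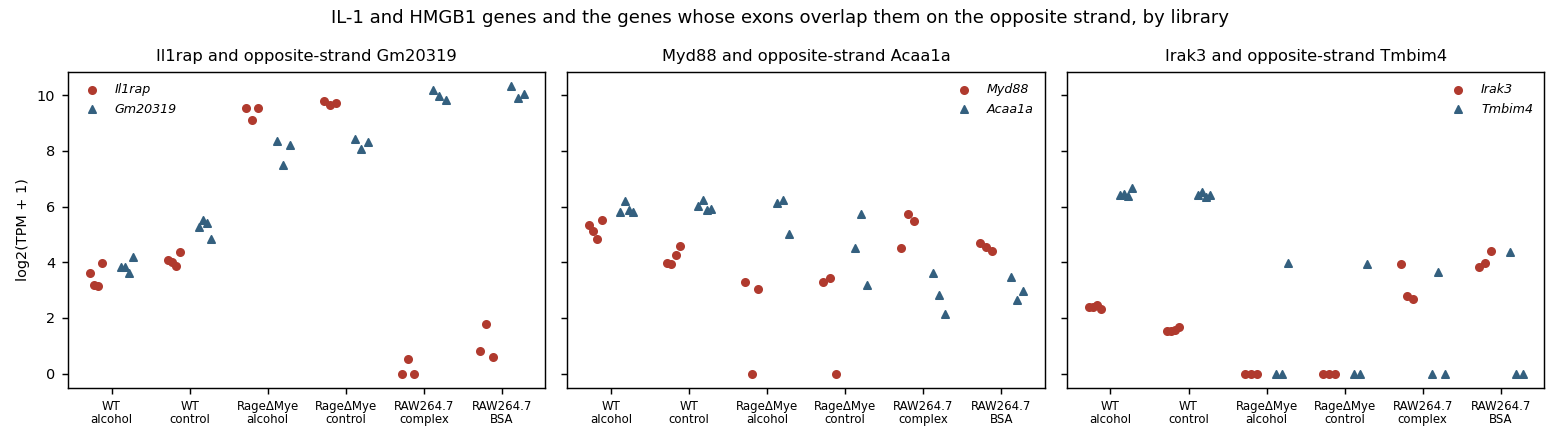
Levels on the log2(TPM + 1) scale (vertical axis) of Il1rap, Myd88 and Irak3 (red circles) and of the gene that overlaps each on the opposite strand (blue triangles), by library in the 6 groups. Il1rap reaches 551 to 874 TPM in the RageΔMye set, against 7.87 to 19.5 TPM in WT liver, and Gm20319 reaches 914 to 1271 TPM in RAW264.7 cells.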

How the data were processed

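The authors deposited 2 tables, 1 of liver and 1 of RAW264.7 libraries, with no unit in their headers. The authors' values are taken to be TPM, since every column adds up to the same total and holds fractions. Per the submitters' processing notes the build was mm10, and per the labels' protocols the libraries were TruSeq Stranded mRNA. The aligner, counter, strand setting and annotation were not given in the sources used here. The number of reads per library is unknown, so no counting interval is given, and a 0 has no upper limit.

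WT liver, liver labelled RageΔMye and RAW264.7 cells were each fitted alone with limma 3.58.1 (R 4.3.3) with its intensity trend, on log2(TPM + 1), for genes that averaged 1 TPM or more in a group. The difference of diet effects came from the 14 liver libraries with library weights per genotype. Fits were tested on simulated data, drawn around a shared mean for each gene with the spread of each group and with negative values cut off. The fit for the difference of diet effects called more genes without an added change than the threshold allows. To a lesser degree so did that of libraries labelled RageΔMye. Since the cut can shift group means, how many of these calls were false is uncertain. WT replicates were numbered in accession order and the others by their titles. The main fits did not pair libraries by these numbers. Exon overlaps came from GENCODE vM21, which placed 24464 of 24970 symbols. Named genes are the 10, Ager, up to 8 passing genes of each list by smallest adjusted p (or the 2 with the smallest p), overlapping genes, 3 like-patterned genes for each of 4 of the 10, and cell markers. Cd14 in RAW264.7 cells was chosen after its values were seen. The genes and lists were chosen with earlier results of these data known.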

Additional observations from a re-analysis of the deposited data

Results flagged for a closer look

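Of 68 sets of 4 libraries, 3 held a library whose gap to its nearest neighbour took up an unusually large share of the range, and chance gives about 1 in 20. Il1r1 in WT alcohol replicate 3 stood at 59.3 TPM beside 78.3 to 79.2 TPM in the other alcohol libraries, a gap of 0.958 of the range. The log2 ratio of Il1rn to Il1b in WT control replicate 3 was -1.005 beside -1.67 to -1.60 in the other control libraries, a gap of 0.9 of the range. Il18bp in WT control replicate 4 stood at 15.5 TPM beside 13.3 to 13.7 TPM in the other control libraries, a gap of 0.84 of the range.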

How the results depend on the processing

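In WT liver 1881 genes passed with a level filter of 5 TPM, and 337 in a joint fit of the 14 liver libraries, against 3042. That joint fit called 3 of the 10 genes (Il1rn, Il1r2 and Irak3), 1 pathway gene and 1 response gene, and the filter left 5 pathway genes. The joint fit took a shared estimate of spread for both genotypes, and Il1r2 and Irak3 were at 0 in every library labelled RageΔMye. In libraries labelled RageΔMye the 4 calls became 0 with a pseudocount of 0.01, 9 with the filter of 5 TPM, 7 under quantile normalization and 7 under upper-quartile scaling, and the joint fit gave 657, of which 1 was a pathway gene. In RAW264.7 cells 0 of the 10 genes passed with a pseudocount of 0.1 or 0.01 or without the filter. For the difference of diet effects 463 genes and 1 of the 10 (Il1r2, adjusted p = 0.0122) passed without library weights, and 128 genes without the filter. These counts are uncertain, since on simulated data this fit called many genes to which no change had been added. The cause of these changes was not tested. Quantile normalization turned Ager in libraries labelled RageΔMye to -0.0214 and the difference of effects of Hmgb1 to -0.0682.

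No pairing of libraries by the replicate numbers of the titles was seen. Same-numbered deviations correlated at -0.025 to 0.018 and the others at -0.037 to 0.038. With 3 libraries per group this cannot exclude a pairing. With the replicate number as a block 0 genes passed in libraries labelled RageΔMye, and 0 genes, 0 of the 10 and 0 response genes in RAW264.7 cells.

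Leaving out 1 library at a time, 2055 to 3469 genes passed in WT liver, with 6 to 7 of the 10 genes, 6 to 12 pathway genes and 7 to 12 response genes. In libraries labelled RageΔMye 0 to 5 genes passed, in RAW264.7 cells 2 to 9 genes, 0 of the 10 and 0 to 2 response genes, and for the difference of effects 50 to 71 genes. Differences that changed sign ranged from -0.0362 to 0.12 for Hmgb1 in WT liver. In libraries labelled RageΔMye they ranged from -1.40 to 1.24 for Il1b, -0.37 to 1.02 for Il1r1, -0.0369 to 0.26 for Hmgb1, -1.27 to 0.90 for Myd88 and -0.19 to 0.22 for Ager. For the difference of effects they ranged from -2.07 to 0.58 for Il1b, -0.0880 to 0.21 for Hmgb1 and -0.27 to 0.14 for Ager. Of the ratios, Il1r2 over Il1r1 ranged from -0.12 to 0.31 in WT liver and from -1.02 to 0.37 in libraries labelled RageΔMye, and Il1rn over Il1b from -2.62 to 0.86 there. In libraries labelled RageΔMye the first of these ratios holds Il1r1 alone, since Il1r2 was at 0 in all of them.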
